A study of Mus musculus with 30 samples.

Results

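The 41 genes described here act in G2 phase and mitosis, the stages in which a cell with copied chromosomes prepares to divide and then divides. They were taken by gene symbol from the array's annotation, from a list drawn up by function with earlier results of these data known. Of the 41 genes, 40 had an array feature with that single symbol, out of 19938 genes with such a feature, and Ccnb1, which encodes cyclin B1, was not analysed here. The study asked how memory CD8+ T cells affect naive CD8+ T cells that are activated beside them. It measured RNA from mouse CD8+ T cells on 30 Affymetrix whole-transcript arrays, 3 for each of 10 groups, which the design text describes as biological triplicates.

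All cells were of C57BL/6 background, from adult spleens, with mice labelled female and aged 6-12 weeks. All carried the Pmel-1 transgene, which encodes a T cell receptor against the melanocyte protein gp100. Whether any cell also carried another receptor was not tested. The memory cells, TMem, carried the Ly5.2 marker and had been differentiated in culture rather than taken from an immunised animal. The naive-derived cells, TN, carried Ly5.1. Either kind was sorted by flow cytometry before stimulation (0 h), or after 18 h or 96 h with antibodies against CD3 and CD28 plus interleukin-2. At 18 h and 96 h each kind had been stimulated either in the presence of the other kind (mix) or by itself (alone), so the groups were TMem 0 h, TMem mix and TMem alone at both times, TN 0 h, and TN mix and TN alone at both times. The mixed cells were sorted apart again before RNA was taken.

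Cells enter mitosis when CDK1, a protein kinase, is bound by cyclins A and B and freed from inhibition by CDC25 phosphatases. Polo and Aurora kinases then build the spindle, the checkpoint proteins BUB1, MAD2 and TTK hold the cell until every kinetochore is attached, and CDC20 switches on the anaphase-promoting complex, which destroys the cyclins. The genes for these proteins are transcribed mainly in late S phase and G2 and are silent in resting cells, where the DREAM complex holds them down. In cycling cells B-Myb and FoxM1 turn them on, and many of their promoters carry a cell cycle genes homology region (CHR). A naive T cell rests until its receptor is engaged, grows through a long G1 phase and then divides rapidly.

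The promoters of 6 members are shown because the members behaved much alike and because these 6 hold the extremes of the results: Kif11 and Bub1 covered the widest ranges over the groups, Cdk1 is the central kinase, and Top2a, Ndc80 and Racgap1 differed between TN mix and TN alone at 18 h. The sequences are RefSeq's, on build GRCm38.p6, from 250 bases before to 50 bases after each gene's start, read on the gene's strand. They lie at chr19:37376132-37376431 (Kif11, plus strand), chr2:127831810-127832109 (Bub1, minus strand), chr10:69352863-69353162 (Cdk1, minus strand), chr11:99024140-99024439 (Top2a, minus strand), chr17:71526808-71527107 (Ndc80, minus strand) and chr15:99651607-99651906 (Racgap1, minus strand). Capitals mark the CHR motif TTTGAA and the motif CCAAT, each on either strand (TTCAAA and ATTGG on the other).
Kif11: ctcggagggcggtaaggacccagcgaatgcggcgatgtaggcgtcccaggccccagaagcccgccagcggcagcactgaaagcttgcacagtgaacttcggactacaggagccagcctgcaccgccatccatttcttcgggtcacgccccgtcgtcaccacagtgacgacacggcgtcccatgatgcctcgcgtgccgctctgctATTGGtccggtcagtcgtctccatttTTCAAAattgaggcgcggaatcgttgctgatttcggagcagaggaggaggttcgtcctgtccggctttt
Bub1: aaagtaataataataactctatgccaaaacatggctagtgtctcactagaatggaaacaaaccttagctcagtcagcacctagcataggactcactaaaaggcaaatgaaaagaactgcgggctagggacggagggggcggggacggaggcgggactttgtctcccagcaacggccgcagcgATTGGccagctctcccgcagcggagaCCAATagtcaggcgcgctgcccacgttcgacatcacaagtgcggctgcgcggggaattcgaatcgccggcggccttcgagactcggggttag
Cdk1: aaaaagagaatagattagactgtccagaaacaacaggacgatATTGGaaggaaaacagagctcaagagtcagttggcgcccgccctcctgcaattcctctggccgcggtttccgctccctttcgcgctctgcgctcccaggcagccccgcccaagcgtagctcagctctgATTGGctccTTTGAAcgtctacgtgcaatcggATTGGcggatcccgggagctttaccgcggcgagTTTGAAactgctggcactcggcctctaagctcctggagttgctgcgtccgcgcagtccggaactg
Top2a: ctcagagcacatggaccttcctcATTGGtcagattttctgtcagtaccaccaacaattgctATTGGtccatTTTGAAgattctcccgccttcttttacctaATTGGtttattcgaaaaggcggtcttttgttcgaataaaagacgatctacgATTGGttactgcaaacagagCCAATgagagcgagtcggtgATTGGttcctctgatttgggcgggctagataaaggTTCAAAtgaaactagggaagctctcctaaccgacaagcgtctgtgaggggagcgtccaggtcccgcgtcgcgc
Ndc80: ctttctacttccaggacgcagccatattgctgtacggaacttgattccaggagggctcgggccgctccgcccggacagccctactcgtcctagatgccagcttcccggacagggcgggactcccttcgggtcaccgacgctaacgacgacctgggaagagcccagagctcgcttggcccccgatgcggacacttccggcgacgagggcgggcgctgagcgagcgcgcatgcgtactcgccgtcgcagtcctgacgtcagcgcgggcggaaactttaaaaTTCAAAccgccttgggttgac
Racgap1: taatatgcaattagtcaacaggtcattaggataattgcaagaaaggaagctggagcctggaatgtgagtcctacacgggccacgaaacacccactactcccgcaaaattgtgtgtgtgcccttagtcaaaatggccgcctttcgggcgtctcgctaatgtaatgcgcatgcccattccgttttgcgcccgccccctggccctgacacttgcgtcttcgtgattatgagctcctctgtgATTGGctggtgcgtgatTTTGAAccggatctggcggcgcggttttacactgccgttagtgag

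A CHR motif was found in 29 of the 36 promoters of the 34 members with a promoter in the table (80.6%), against 5878 of all 32851 mouse promoters of that length (17.9%). Within 50 bases of the start, a window chosen after the motifs had been seen, the share was 26 of 36 (72.2%), against 4.94% of all promoters. CCAAT stood in 28 of 36 member promoters (77.8%) and in 37.4% of all promoters, and within 50 bases of the start in 50% and 13.6%. The Bub1 window printed above holds no CHR motif and 2 CCAAT motifs, whereas the Ndc80 window holds 1 CHR motif and no CCAAT motif. Such matches describe letters in a window and are no evidence that a protein binds there. Tpx2, Kif20a, Pbk, Aurkb, Ccna2 and Cdc25c have no entry in the table.

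**Figure D1:**
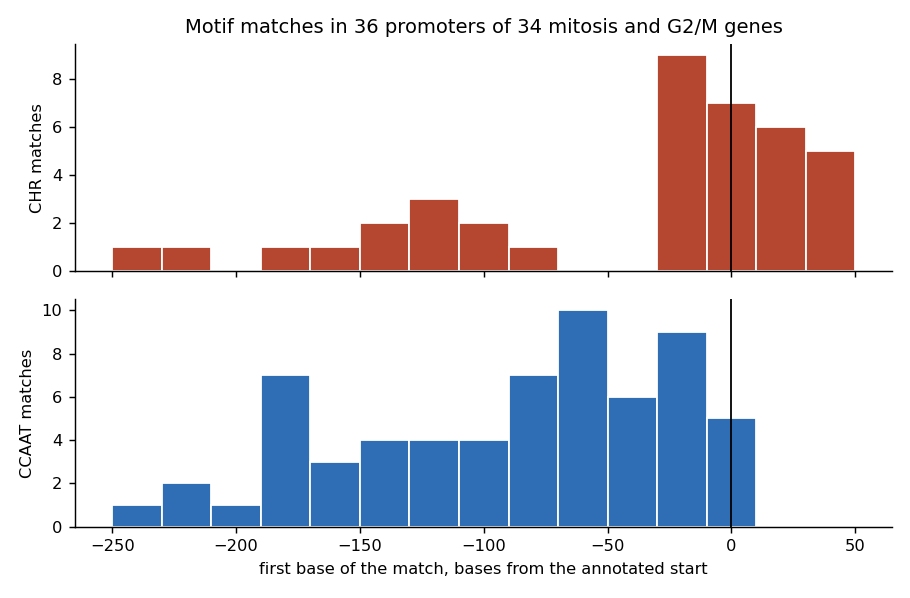
Position of the first base of each CHR and CCAAT motif relative to the gene start, in bins of 20 bases (x axis, bases; y axis, number of motifs), over the 36 member promoters. CHR motifs lie mostly near the start, with 26 of 36 promoters holding a match within 50 bases of it.

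All values below are the deposited log2 signals of 1 array feature per gene. A feature's level depends on its probes, so levels are compared between groups for 1 gene and never between genes. Differences are tested with limma over all 19938 genes, and a gene is called at a Benjamini-Hochberg adjusted p under 0.05. A group mean is called near background when it lies below the lower quartile of all features in that group, 5.63 to 5.74, and a difference from such a group is a lower bound. All 40 members passed a filter that required a signal above 5.68 on at least 3 arrays, as did 16857 genes in all.

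Several features of the arrays bear on what follows. Replicates correlated at 0.9784 or better over all genes. In 5 arrays at least 30 genes lay over 1 log2 unit from the mean of the other 2 arrays of their group, where those 2 lay within 0.5 of each other. These arrays were TMem 0 h replicate 3, TMem mix 96 h replicate 2, TN 0 h replicate 1, TN mix 18 h replicate 2 and TN mix 96 h replicate 2. The other 25 arrays had at most 25 such genes. Although every sample is labelled female, the Y-linked transcript Eif2s3y averaged 9.17 to 9.27 in the TMem groups, with Xist at 5.26 to 5.86. In TN, Eif2s3y averaged 4.19 at 0 h, 8.36 in TN mix and 8.14 in TN alone at 18 h, and 7.64 in TN mix and 4.17 in TN alone at 96 h, while Xist averaged 10.4 to 12.11 over the TN groups. The sex of the cells or their source therefore moves with several comparisons, and its part in the results was not tested. At 96 h Eif2s3y in TN mix lay between TN alone and TMem, while at 18 h it was high in TN mix and also in TN alone, which is labelled as having no TMem in the culture. Whether sorted TN mix held some TMem was not tested, and this bears on every comparison of TN mix with TN alone. With genes of chromosomes X and Y left out of the fit, 39 members remained, since Kif4 is X-linked, and their counts of calls were the same or lower by 1 in all comparisons. T cell markers were high in all 10 groups (Cd3e 11.99 to 12.75, Cd8a 11.26 to 12.42). The B cell genes Cd79a, Ms4a1, Ebf1, Cr2 and Fcer2a were near background in all 10. Of the other B cell genes, Cd79b averaged 7.58 to 9.58, and Pax5, Blk and Cd22 averaged 6.21 to 6.63, above that limit in all 10.

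The mean of the 40 members set TN at 0 h and 18 h, and TMem at 18 h, apart from the other groups far beyond the spread between replicates (pooled SD 0.071). The other groups, TMem at 0 h and all groups at 96 h, lay together at 9.81 to 10.19. In TMem it was 10.19, 9.99 and 10.04 at 0 h. At 18 h it was 8.89, 8.96 and 9.01 in TMem mix and 9.09, 9.02 and 9.15 in TMem alone. At 96 h it was 10.1, 9.88 and 9.97 in TMem mix and 10.06, 10.07 and 10.05 in TMem alone. TMem were thus high at 0 h, lower by about 1 unit on all 6 arrays at 18 h, and back at the 0 h level at 96 h. In TN the mean was 6.53, 6.46 and 6.49 at 0 h. At 18 h it was 6.45, 6.35 and 6.42 in TN mix and 6.36, 6.37 and 6.33 in TN alone. At 96 h it was 10.01, 10.08 and 10.18 in TN mix and 9.81, 10 and 9.95 in TN alone. TN stayed low to 18 h and reached the TMem range at 96 h. These are bulk samples, so fewer cells in G2 and mitosis cannot be told apart from less of each RNA per cell.

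**Figure D2:**
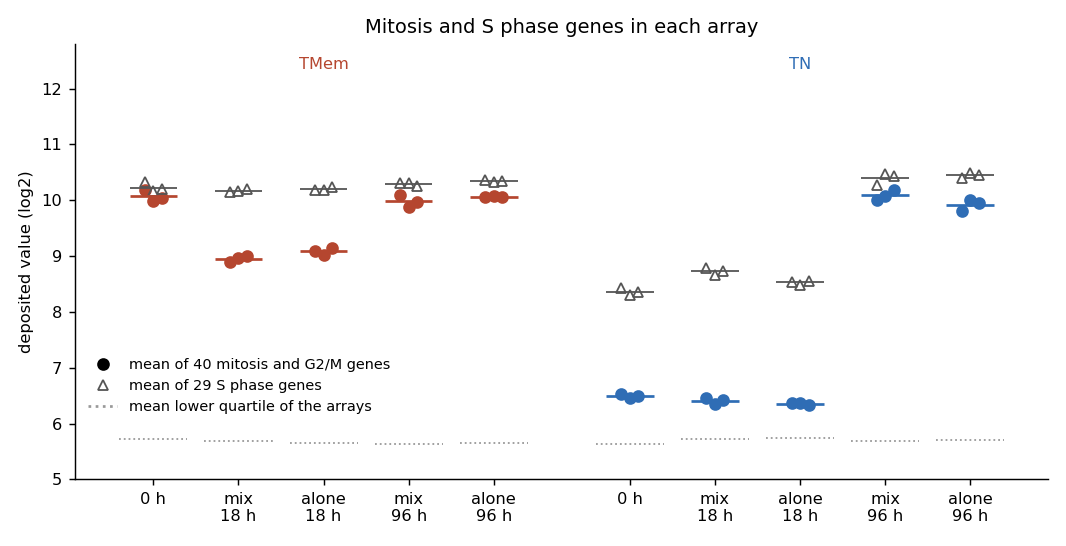
Mean log2 signal (y axis) of the 40 mitosis and G2/M genes (filled circles) and of 29 S phase genes (open triangles) on each array, by group (x axis; TMem left in red, TN right in blue; bars are group means, the dotted line is the mean lower quartile of all features). The mitotic mean lies between 8.89 and 9.15 on the 6 TMem arrays at 18 h and between 6.33 and 6.53 on the TN arrays at 0 h and 18 h.

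The mean of 29 S phase genes, measured on the same arrays, did not follow the mitotic mean at 18 h. In TMem the S phase mean was 10.32, 10.16 and 10.2 at 0 h. It was 10.15, 10.17 and 10.2 in TMem mix and 10.18, 10.19 and 10.24 in TMem alone at 18 h. These S phase values overlap, whereas the mitotic values of the same arrays do not. In TN the S phase mean was 8.42, 8.31 and 8.36 at 0 h, and at 18 h it was 8.79, 8.67 and 8.73 in TN mix and 8.54, 8.49 and 8.56 in TN alone. At 96 h the S phase mean was 10.28, 10.47 and 10.43 in TN mix and 10.4, 10.48 and 10.46 in TN alone, close to its TMem values.

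Cdk1, the kinase that drives entry into mitosis, shows the course of a single gene. In TMem it read 10.61, 10.38 and 10.48 at 0 h. At 18 h Cdk1 read 9.82, 9.87 and 9.93 in TMem mix and 9.97, 10.23 and 10.07 in TMem alone, and at 96 h 10.57, 10.58 and 10.20 in TMem mix and 10.63, 10.66 and 10.68 in TMem alone. In TN it read 7.09, 6.57 and 6.66 at 0 h. At 18 h Cdk1 read 6.67, 6.51 and 6.72 in TN mix and 6.23, 6.38 and 6.32 in TN alone. At 96 h it read 10.39, 10.74 and 10.73 in TN mix and 10.47, 10.67 and 10.34 in TN alone. The TN arrays at 0 h and 18 h all lie at or below 7.09 and every other array lies at or above 9.82.

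**Figure D3:**
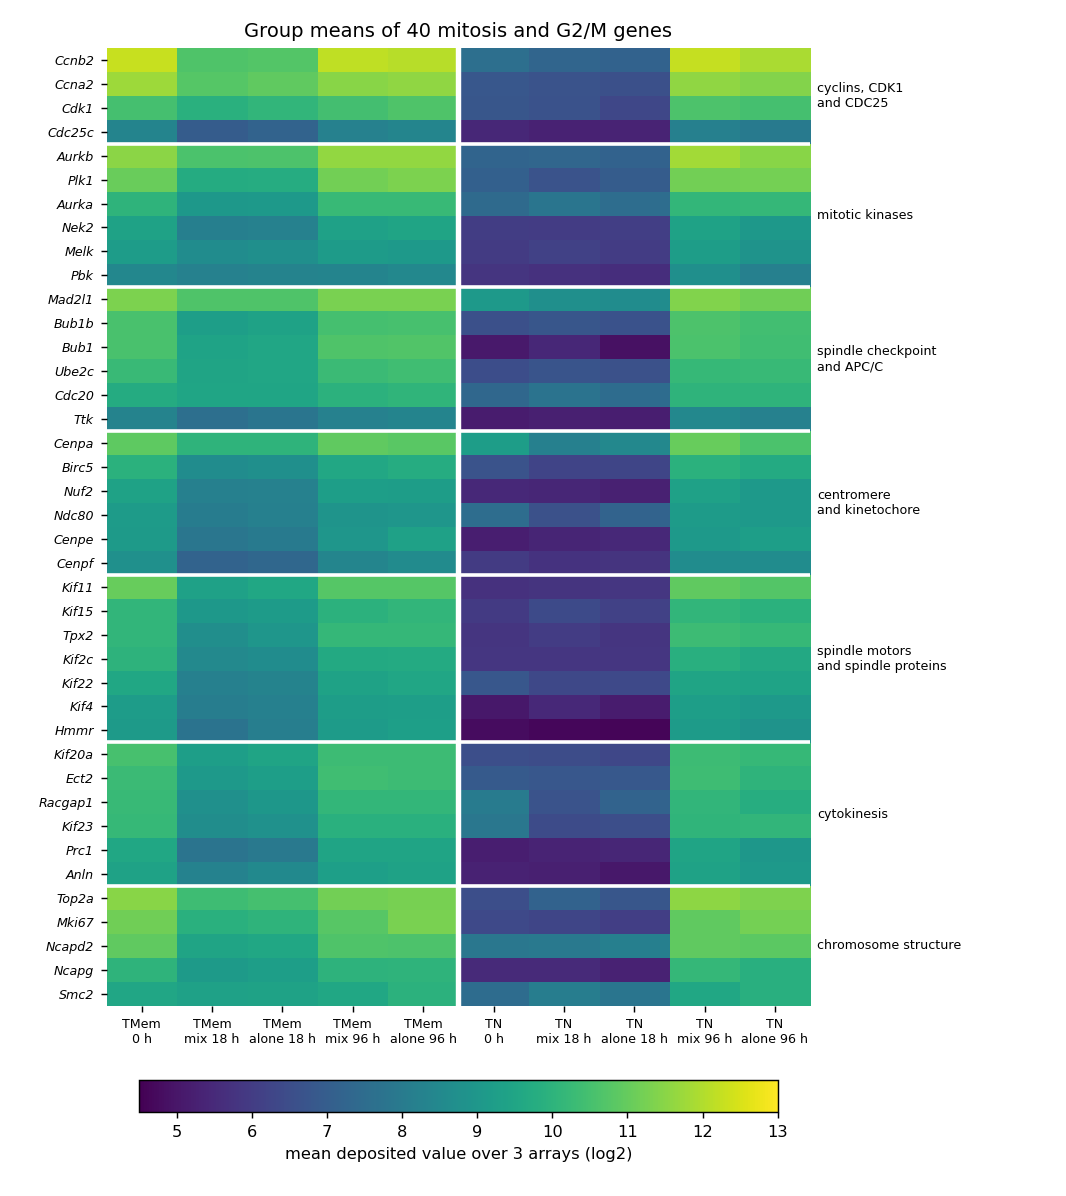
Group means of the 40 members (top to bottom by role: cyclins and CDK1, kinases, checkpoint, kinetochore, spindle, cytokinesis, chromosome structure) in the 10 groups (columns; TMem left, TN right); colour is log2 signal. For all 40 members the TN 0 h and both TN 18 h columns are darker than every other column, with 10, 11 and 11 members near background.

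TMem had higher levels than TN of all 40 members at 0 h, before the stimulation with antibodies. By then TMem had already been differentiated in culture. The share of all genes called higher was 18.4%, and 17.5% were called lower. The median difference of the members was 3.82, against 0.02 over all genes, and every member differed by more than 1. By role, the median was 4.19 for the cyclins with Cdk1 and Cdc25c, 3.28 for the mitotic kinases, 3.45 for the checkpoint and APC/C genes, 3.02 for the kinetochore genes, 4.16 for the spindle genes, 3.68 for the cytokinesis genes and 4.52 for the chromosome genes.

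Ccna2, the cyclin of S phase and G2, read 11.82, 11.74 and 11.69 in TMem, against 6.97, 6.78 and 6.72 in TN at 0 h. Ccnb2, a mitotic cyclin, read 12.33, 12.36 and 12.19 in TMem, against 7.68, 7.56 and 7.63 in TN. The 2 sets of arrays were far apart for either gene, with a Ccna2 difference of 4.93 (SE 0.07, limma adjusted p 2.38e-27) and a Ccnb2 difference of 4.67 (SE 0.08, limma adjusted p 2.55e-26). Cdk1 was higher in TMem by 3.72 (SE 0.12, limma adjusted p 1.18e-19), a fold of 13.1. Among the kinases, Plk1, which acts at centrosomes and kinetochores, read 11.13, 11.11 and 10.90 in TMem, against 7.17, 6.93 and 7.20 in TN. Aurkb, the kinase of the chromosomal passenger complex, read 11.61, 11.56 and 11.34 in TMem, against 7.16, 7.27 and 7.26 in TN. Both kinases separated the cells without overlap, by 3.95 (Plk1) and 4.28 (Aurkb).

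Bub1, a kinetochore kinase of the spindle checkpoint, read 10.67, 10.49 and 10.49 in TMem, against 4.74, 5.38 and 5.10 in TN at 0 h. Since the TN level was near background, Bub1 was at least 5.48 higher in TMem (SE 0.13, limma adjusted p 9.08e-23). Its partner Bub1b, which encodes BUBR1, read 10.74, 10.59 and 10.39 in TMem, against 6.54, 6.52 and 6.71 in TN, a difference of 3.98. The kinetochore genes Cenpe, a motor that moves chromosomes to the metaphase plate, and Nuf2, a subunit of the NDC80 complex, were at least 3.89 and at least 3.91 higher in TMem. Kif11, the motor that separates the spindle poles, read 11.13, 10.84 and 11.08 in TMem, against 5.68, 5.71 and 5.74 in TN, a difference of 5.31 (SE 0.09, limma adjusted p 2.35e-26) from a TN level barely above the near-background limit of 5.63. Hmmr, a spindle-associated protein, read 9.35, 8.86 and 9.17 in TMem, against 4.90, 4.68 and 4.73 in TN, at least 4.35 higher. The TMem and TN arrays did not overlap for either spindle gene.

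For cytokinesis, Prc1, which bundles microtubules of the central spindle, read 9.65, 9.54 and 9.44 in TMem, against 5.02, 5.30 and 5.31 in TN at 0 h, at least 4.34 higher. Anln, a scaffold of the contractile ring, read 9.45, 9.16 and 9.63 in TMem, against 5.35, 5.20 and 5.38 in TN, at least 4.10 higher. Both were near background in TN. Mki67, the proliferation marker Ki-67, read 11.38, 11.21 and 10.91 in TMem, against 6.32, 6.38 and 6.43 in TN, higher by 4.79 (SE 0.27, limma adjusted p 1.8e-14). Top2a, the topoisomerase that untangles sister chromatids, read 11.51, 11.24 and 11.75 in TMem, against 6.48, 6.58 and 6.53 in TN, higher by 4.97 (SE 0.10, limma adjusted p 3.08e-24). The smallest differences were those of Ndc80 (1.61), Cenpa (1.65) and Smc2 (2.04), whose levels in resting TN were well above background. Ndc80, the kinetochore's microtubule binder, read 9.24, 8.99 and 9.22 in TMem, against 7.51, 7.40 and 7.72 in TN. Markers of mast cells and basophils were also higher in TMem at 0 h for 4 of 7 genes, and markers of erythroid cells and platelets for 3 of 6. T cell markers were lower in TMem for 6 of 8 genes and higher for 1. The mast cell list averaged 6.32 to 6.83 per array in TMem and 5.62 to 5.85 in TN, and the platelet list 7.22 to 7.23 in TMem and 6.53 to 6.76 in TN. Their part in the result was not tested.

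By 18 h of stimulation alone, TMem had lost part of this signal: 37 of the 40 members fell and none rose, where 17.3% of all genes were called lower and 18% higher. The median difference from 0 h was -1.01, against -0.09 over all genes, all 40 differences were below 0, and 23 members fell by more than 1. All 4 cyclin-group genes, 5 of 6 kinases, 5 of 6 checkpoint genes, all 6 kinetochore genes, all 7 spindle genes, all 6 cytokinesis genes and 4 of 5 chromosome genes were called. The largest fall was in Prc1, which read 7.94, 7.84 and 8.02 in TMem alone at 18 h, against 9.65, 9.54 and 9.44 at 0 h. Prc1 fell by 1.61 (SE 0.11, limma adjusted p 8.2e-13), a level 3.06-fold lower.

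Ccnb2 read 10.68, 10.82 and 10.68 in TMem alone at 18 h, against 12.33, 12.36 and 12.19 at 0 h, and fell by 1.57 (SE 0.08, limma adjusted p 2.34e-15). Kif11 read 9.62, 9.48 and 9.65 at 18 h, against 11.13, 10.84 and 11.08 at 0 h, and fell by 1.43 (SE 0.09, limma adjusted p 1.57e-13). The arrays of the 2 times did not overlap for Prc1, Ccnb2 or Kif11. Kif2c, a microtubule depolymerase, Kif23, a motor of the central spindle, and Ncapd2, a condensin subunit, each fell by 1.37. Plk1 read 9.80, 9.70 and 9.78 in TMem alone at 18 h, against 11.13, 11.11 and 10.90 at 0 h, and fell by 1.29. Mki67 read 10.28, 9.62 and 10.20 at 18 h, against 11.38, 11.21 and 10.91 at 0 h, and fell by 1.14 (SE 0.27, limma adjusted p 0.00105). Ccna2 read 10.91, 10.95 and 10.85 at 18 h, against 11.82, 11.74 and 11.69 at 0 h, and fell by 0.84. The fall of Cdk1, 0.40 (SE 0.12, limma adjusted p 0.0114), was smaller than that of most members.

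The 3 members that did not pass the test in TMem at 18 h were Cdc20, the activator of the APC/C, with a difference of -0.23 from 0 h, Pbk, a mitotic kinase, with -0.16, and Smc2, the core ATPase of condensin, with -0.14. Pbk read 8.34, 8.31 and 8.21 in TMem alone at 18 h, against 8.33, 8.43 and 8.57 at 0 h, so the arrays overlapped. Even at their 18 h low, all 40 members were higher in TMem alone than in TN alone, where 15.4% of all genes were called higher, with a median difference of 2.73 and a range from 1.00 for Ndc80 to at least 4.65 for Bub1. The same held for TMem mix against TN mix at 18 h, with 40 of 40 members higher beside 11.8% of all genes, and a median of 2.49. Mast cell markers fell in 5 of 7 and platelet markers in 4 of 6 cases in TMem between 0 h and 18 h alone. Their list means per array were 5.54 to 5.6 against 6.32 to 6.83, and 6.27 to 6.37 against 7.22 to 7.23. T cell markers fell in 7 of 8 cases and rose in 1. Falls were also called for 2 of 6 NK, 2 of 15 myeloid, 2 of 9 B cell and 1 of 5 CD4 genes. The part of these markers in the members' falls was not tested.

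**Figure D4:**
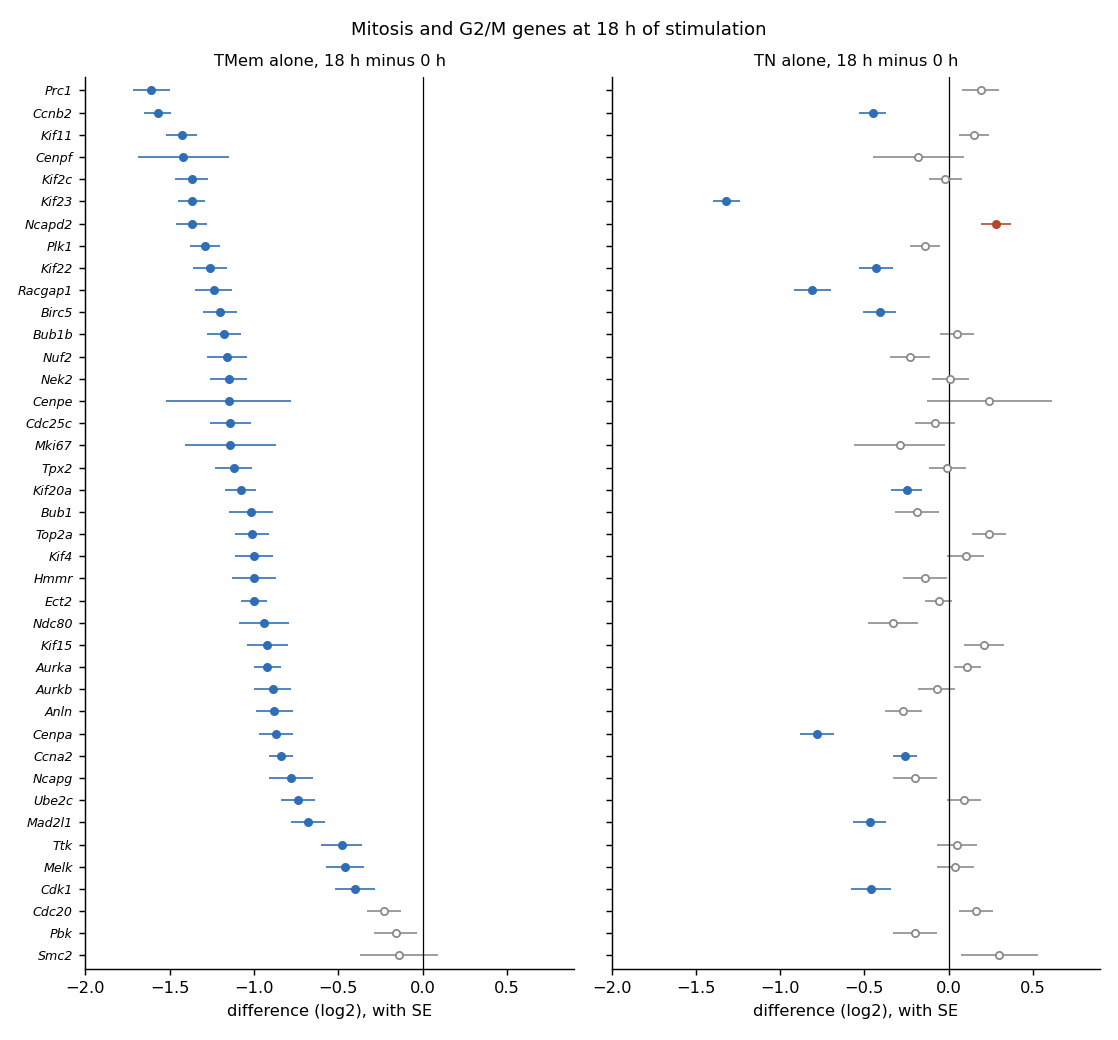
Difference in log2 signal between 18 h alone and 0 h (x axis, error bars are SE) for each member (y axis), in TMem (left) and TN (right); blue points were called lower, red called higher, open grey not called. In TMem 37 members were called lower, while in TN 10 were called lower and 1, Ncapd2, higher.

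In TN the members changed less over the same 18 h. In TN alone, 10 of 40 members (25%) fell and 1 (2.5%) rose, where 16.7% of all genes were called lower and 17.1% higher. The median difference was -0.11. The largest fall was in Kif23, which read 6.56, 6.53 and 6.53 in TN alone at 18 h, against 8.0, 7.73 and 7.84 at 0 h. Kif23 fell by 1.32 (SE 0.08, limma adjusted p 2.88e-13), a level 2.49-fold lower, with no overlap. Racgap1, the partner of Kif23 in the centralspindlin complex, read 7.17, 7.21 and 7.28 at 18 h, against 7.86, 8.05 and 8.16 at 0 h, and fell by 0.81 (SE 0.11, limma adjusted p 7.14e-07). Cenpa, the histone H3 variant of centromeres, read 8.36, 8.57 and 8.44 at 18 h, against 9.59, 9.09 and 9.05 at 0 h, and fell by 0.78 (SE 0.10, limma adjusted p 5.3e-07).

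The other called falls in TN alone at 18 h were those of the checkpoint gene Mad2l1 (0.47), Cdk1 (0.46), Ccnb2 (0.45), the chromokinesin gene Kif22 (0.43), the passenger complex gene Birc5 (0.41), Ccna2 (0.26) and the cytokinesis motor gene Kif20a (0.25). None of the 10 genes that fell was near background at 0 h. Ncapd2 went against them and read 8.21, 8.19 and 8.10 in TN alone at 18 h, against 7.62, 7.96 and 8.07 at 0 h. Its rise of 0.28 (SE 0.09, limma adjusted p 0.0092) was lost without TN 0 h replicate 1, as were the falls of Cdk1 and Kif20a. The call of Kif20a was kept in 11 of 17 alternative settings. For the 10 members near background in TN at 0 h, among them Bub1, Hmmr, Prc1 and Anln, a fall could not have been measured. Markers lower in TN alone at 18 h were 5 of 8 for T cells, 4 of 6 for NK cells, 4 of 15 for myeloid cells, 1 of 9 for B cells and 1 of 6 for platelets. Higher were 1 T cell, 1 myeloid, 1 CD4 and 2 mast cell genes. Eif2s3y averaged 8.14 in TN alone at 18 h and 4.19 in TN at 0 h. The part of these markers and of Eif2s3y was not tested.

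The response of TMem at 18 h was below that of TN for 32 of 40 members in a direct test of the difference between the 2 responses, where 14.7% of all genes were called lower and 14.2% higher. The median of that difference was -0.84. It was largest for Prc1, at -1.80 (SE 0.15, limma adjusted p 3.47e-10), Ncapd2, at -1.65 (SE 0.12, limma adjusted p 3.2e-11), and Kif11, at -1.58 (SE 0.12, limma adjusted p 9.3e-11). For Prc1 and the other members near background in TN, 10 at 0 h and 11 in TN alone at 18 h, the TN side of this difference is limited by background. Kif11, at 5.71 in TN at 0 h, lay barely above the limit of 5.63. The count of 32 and the median include such members.

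Between 18 h and 96 h all 40 members rose in TN alone, where 11.3% of all genes were called higher, with a median of 3.70 and a range from 1.85 for Ndc80 to at least 5.51 for Bub1. All 40 also rose in TN mix, where 20.6% of all genes were called higher, with a median of 3.70. Against 0 h, all 40 were higher in TN alone at 96 h beside 18.6% of all genes, with a median of 3.68. Kif11 read 10.58, 10.76 and 10.82 in TN alone at 96 h, against 5.68, 5.71 and 5.74 at 0 h, a rise of 5.02 (SE 0.09, limma adjusted p 1.04e-25). Mki67 read 11.17, 11.27 and 11.20 at 96 h, against 6.32, 6.38 and 6.43 at 0 h, a rise of 4.84. Top2a read 11.29, 11.40 and 11.36 at 96 h, against 6.48, 6.58 and 6.53 at 0 h, a rise of 4.82. No array of TN alone at 96 h overlapped one at 0 h for these 3 genes. The smallest rise was that of Cenpa, 1.35 (SE 0.10, limma adjusted p 1.69e-11). This comparison and the one of TMem with TN at 0 h share the TN 0 h arrays. Between 18 h and 96 h in TN alone, markers also rose for 4 of 7 mast cell genes (list means of 6.44 to 6.63 per array, against 5.61 to 5.63), 4 of 6 NK genes (5.77 to 5.84, against 5.09 to 5.26) and 5 of 15 myeloid genes (6.85 to 6.89, against 6.4 to 6.5). Against 0 h they rose for 3 of 7 mast cell and 4 of 15 myeloid genes, while T cell markers fell for 6 of 8 and rose for none. Eif2s3y averaged 8.14 in TN alone at 18 h and 4.17 at 96 h. The part of these markers and of Eif2s3y in the members' rise was not tested.

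TMem alone recovered over the same interval, with 38 of 40 members higher at 96 h than at 18 h and none lower, beside 14.6% of all genes called higher and a median of 1.05. Pbk and Smc2 were the members not called, with 0.19 and 0.56. Plk1 showed the largest rise, 1.55 (SE 0.09, limma adjusted p 3.12e-13), reading 11.38, 11.25 and 11.30 in TMem alone at 96 h, against 9.80, 9.70 and 9.78 at 18 h. Prc1 rose by 1.54 and Cenpe by 1.41. In TMem mix 38 of 40 members rose as well, beside 16.1% of all genes, with a median of 1.10. The rise from 18 h to 96 h was smaller in TMem alone than in TN alone for all 40 members, where 6.24% of all genes were called lower and 9.61% higher in that test. That difference had a median of -2.58. It was -4.36 for Bub1 (SE 0.18, limma adjusted p 3.04e-16), -4.17 for Ccna2 (SE 0.10, limma adjusted p 3.47e-21) and -3.87 for Mki67 (SE 0.38, limma adjusted p 6.66e-09). It equals the TMem alone minus TN alone difference at 96 h (median 0.12) less that at 18 h (median 2.73). Those gaps come from the same arrays, so this is no separate finding.

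Against 0 h, TMem alone at 96 h had 2 members called higher and 5 lower, beside 16.1% and 8.44% of all genes, and the median was -0.01. Cdc20 (0.33) and Plk1 (0.26) were higher, and Kif2c (-0.32), Ncapd2 (-0.29), Kif23 (-0.28), Kif11 (-0.26) and Ccnb2 (-0.21) were lower. Leaving out single arrays brought these 7 calls to between 1 and 6, with 1 without TMem alone 96 h replicate 2 and 2 without replicate 3 of that group, 4 without TMem 0 h replicate 1 and 3 without TMem 0 h replicate 3. Mast cell and basophil markers were lower at 96 h for 5 of 7 genes (list means of 5.78 to 5.87 per array, against 6.32 to 6.83 at 0 h) and erythroid and platelet markers for 4 of 6 (6.3 to 6.38, against 7.22 to 7.23). T cell markers were lower for 6 of 8 genes, with none higher. Their part in the calls was not tested.

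At 96 h TMem alone and TN alone were close: 7 members were higher in TMem and 1 was lower, where 14.1% and 8.02% of all genes were called. The median difference was 0.12, against 0.01 over all genes, and 34 of 40 were above 0, beside 10442 of 19938 genes. Prc1 read 9.53, 9.46 and 9.44 in TMem alone, against 8.79, 9.08 and 9.10 in TN alone, 0.49 higher in TMem (limma adjusted p 0.000809). Nek2, a centrosomal kinase, read 9.44, 9.42 and 9.52 in TMem alone, against 8.98, 9.11 and 8.96 in TN alone, 0.44 higher (limma adjusted p 0.00219). For both genes every TMem array was above every TN array. Hmmr (0.44), Cdc25c (0.36), Anln (0.31), Racgap1 (0.31) and Ect2 (0.29) were the other members higher in TMem alone. Ncapd2 went the other way and read 10.67, 10.58 and 10.64 in TMem alone, against 10.82, 10.90 and 10.89 in TN alone, a difference of -0.24 (limma adjusted p 0.0424). The 8 calls came to 3 without TN alone 96 h replicate 1 or TMem alone replicate 3, and to 4 without TN alone replicate 3 or TMem alone replicate 1 or 2. Markers lower in TMem alone in this comparison were 4 of 7 for mast cells and basophils, 3 of 6 for erythroid cells and platelets, 3 of 6 for NK cells, 2 of 5 for CD4 T cells and 3 of 15 for macrophages and other myeloid cells. Also lower were 5 of 8 for T cells and 1 of 9 for B cells. Higher were 2 NK, 1 CD4, 2 myeloid and 1 T cell gene. The mast cell list averaged 5.78 to 5.87 per array in TMem alone and 6.44 to 6.63 in TN alone. Their part in the result was not tested.

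In the mixed culture the same comparison at 96 h gave no member higher and 3 lower in TMem mix than in TN mix, where 6.68% and 3.94% of all genes were called. Pbk was lower by 0.42, Top2a by 0.37 and Birc5, which encodes survivin, by 0.33. Pbk read 8.37, 8.48 and 8.11 in TMem mix, against 8.5, 9.05 and 8.68 in TN mix. Top2a read 11.31, 11.10 and 11.12 in TMem mix, against 11.40, 11.53 and 11.69 in TN mix. In neither gene did the arrays overlap. The 3 calls came to 5 without TN mix 96 h replicate 1, to 1 without TN mix replicate 2 or TMem mix replicate 1, and to 0 without TMem mix replicate 3. No member was called with each array centred on its median or with only these 2 groups in the fit.

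The comparison of mix with alone asks whether the presence of the other cell type changed these genes. In TN at 18 h, TN mix differed from TN alone in both directions, with 3 of 40 members higher and 3 lower, 7.5% each way, where 6.3% of all genes were called higher and 8.15% lower. These shares are near those of all genes. Top2a read 7.16, 7.12 and 7.22 in TN mix, against 6.81, 6.60 and 6.90 in TN alone, and was higher in TN mix by 0.40 (SE 0.10, limma adjusted p 0.0066). Aurka, the kinase of spindle poles, read 7.89, 7.71 and 7.80 in TN mix, against 7.56, 7.5 and 7.6 in TN alone, higher by 0.25 (SE 0.08, limma adjusted p 0.0469). In both genes all 3 mix arrays were above all 3 alone arrays. Bub1 read 5.46, 5.71 and 5.21 in TN mix, against 4.80, 4.75 and 5.11 in TN alone, a difference of 0.57 (limma adjusted p 0.00269) between 2 levels that were both near background, so no fold is read from it.

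The 3 genes lower in TN mix at 18 h were Ndc80, Racgap1 and Plk1. Ndc80 read 6.72, 6.50 and 6.64 in TN mix, against 7.24, 7.27 and 7.12 in TN alone, a difference of -0.59 (SE 0.15, limma adjusted p 0.00548). Racgap1 read 6.96, 6.42 and 6.70 in TN mix, against 7.17, 7.21 and 7.28 in TN alone, a difference of -0.53 (SE 0.11, limma adjusted p 0.000994). Plk1 read 6.74, 6.45 and 6.79 in TN mix, against 6.92, 7.04 and 6.92 in TN alone, a difference of -0.30 (SE 0.09, limma adjusted p 0.0277). The TN mix arrays lay below all TN alone arrays in each of the 3. Racgap1 was also among the genes that fell between 0 h and 18 h in TN alone, with which this comparison shares the TN alone arrays. Under 18 alternative settings the calls of Bub1, Ndc80 and Racgap1 were kept in all 18, that of Top2a in 16, that of Plk1 in 13 and that of Aurka in 11. Top2a was not called when its 2 features were averaged, nor once TN alone replicate 2 was left out.

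At 96 h, 8 of 40 members (20%) were higher in TN mix than in TN alone and none was lower, where 7% of all genes were called higher and 3.62% lower. The median difference was 0.19, against 0.05 over all genes, and 33 of 40 were above 0, beside 12355 of 19938 genes. Prc1 read 9.35, 9.52 and 9.50 in TN mix, against 8.79, 9.08 and 9.10 in TN alone, and was higher by 0.47 (SE 0.11, limma adjusted p 0.00324). Cenpa read 10.92, 11.07 and 11.12 in TN mix, against 10.52, 10.65 and 10.61 in TN alone, and was higher by 0.45 (SE 0.10, limma adjusted p 0.00416). Pbk read 8.5, 9.05 and 8.68 in TN mix, against 8.04, 8.19 and 8.39 in TN alone, and was higher by 0.53 (SE 0.13, limma adjusted p 0.00491). In these 3 genes the mix arrays all lay above the alone arrays. Ccnb2 read 12.27, 12.29 and 12.15 in TN mix, against 11.89, 11.97 and 11.91 in TN alone, and was higher by 0.31 (SE 0.08, limma adjusted p 0.00654). Ect2, the exchange factor that activates RhoA for cytokinesis, read 10.38, 10.33 and 10.35 in TN mix, against 9.96, 10.13 and 9.99 in TN alone, and was higher by 0.33 (SE 0.08, limma adjusted p 0.00934). Ccnb2 and Ect2 did not overlap either.

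Nek2 read 9.10, 9.65 and 9.49 in TN mix at 96 h, against 8.98, 9.11 and 8.96 in TN alone, higher by 0.40 (SE 0.11, limma adjusted p 0.013) although 1 mix array lay within the range of the alone arrays. Melk, a kinase with a peak in mitosis, was higher by 0.36 (limma adjusted p 0.0422) with overlapping arrays, and Anln by 0.33 (limma adjusted p 0.0461) without overlap. The TN alone arrays at 96 h also enter the comparison with TMem alone above, in which Prc1, Nek2, Anln and Ect2 were lower in TN alone. By role, the 8 calls were 3 kinases (Pbk, Nek2 and Melk), 3 cytokinesis genes (Prc1, Ect2 and Anln), 1 cyclin gene and 1 kinetochore gene, with none among the checkpoint, spindle and chromosome genes. Under 19 settings Cenpa and Prc1 kept the call in all 19, Ccnb2 and Pbk in 18, Ect2 in 16, Nek2 in 12 and Melk and Anln in 11. The 8 calls came to 4 without TN mix 96 h replicate 2 and likewise without replicate 1 of TN alone, and to 5 without replicate 3 of either group. With each array centred on its median the count was 4, and with only the 2 groups in the fit it was 4, or 11 when replicate number was also a block.

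Several members stood apart on TN mix 96 h replicate 2 itself. Cenpe read 9.51, 8.02 and 9.78 in TN mix at 96 h, against 9.10, 9.38 and 9.34 in TN alone. Mki67 read 11.26, 10.18 and 11.32 in TN mix, against 11.17, 11.27 and 11.20 in TN alone. On TMem mix 96 h replicate 2 the same genes were low too: Cenpe read 9.65, 7.68 and 9.57 and Mki67 read 11.36, 9.82 and 11.19 over the 3 TMem mix arrays. Cenpf, a kinetochore protein with a long coiled coil, and Smc2 behaved likewise, and without the 5 arrays that stood apart the Cenpf difference between TN mix and TN alone was 0.42 (limma adjusted p 0.0492), against 0.00 with them. Without TN mix 96 h replicate 2 alone it was also 0.42, with a limma adjusted p of 0.359. Other cell types' markers also differed in this comparison. Lower in TN mix were 4 of 7 mast cell and basophil genes (Cpa3 6.85 in TN mix and 8.58 in TN alone), 3 of 15 macrophage and myeloid genes (Lyz2 5.47 and 8.26), 2 of 6 NK genes (Klrb1b 5.56 and 7.23), 2 of 5 CD4 T cell genes (Foxp3 7.30 and 8.79), 1 of 9 B cell genes and 1 of 6 erythroid and platelet genes. The mast cell list averaged 5.74 to 5.92 per array in TN mix and 6.44 to 6.63 in TN alone, and the CD4 list 6.54 to 6.77 and 7.04 to 7.14. The part of these markers, and of Eif2s3y, in the 8 calls was not tested.

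**Figure D5:**
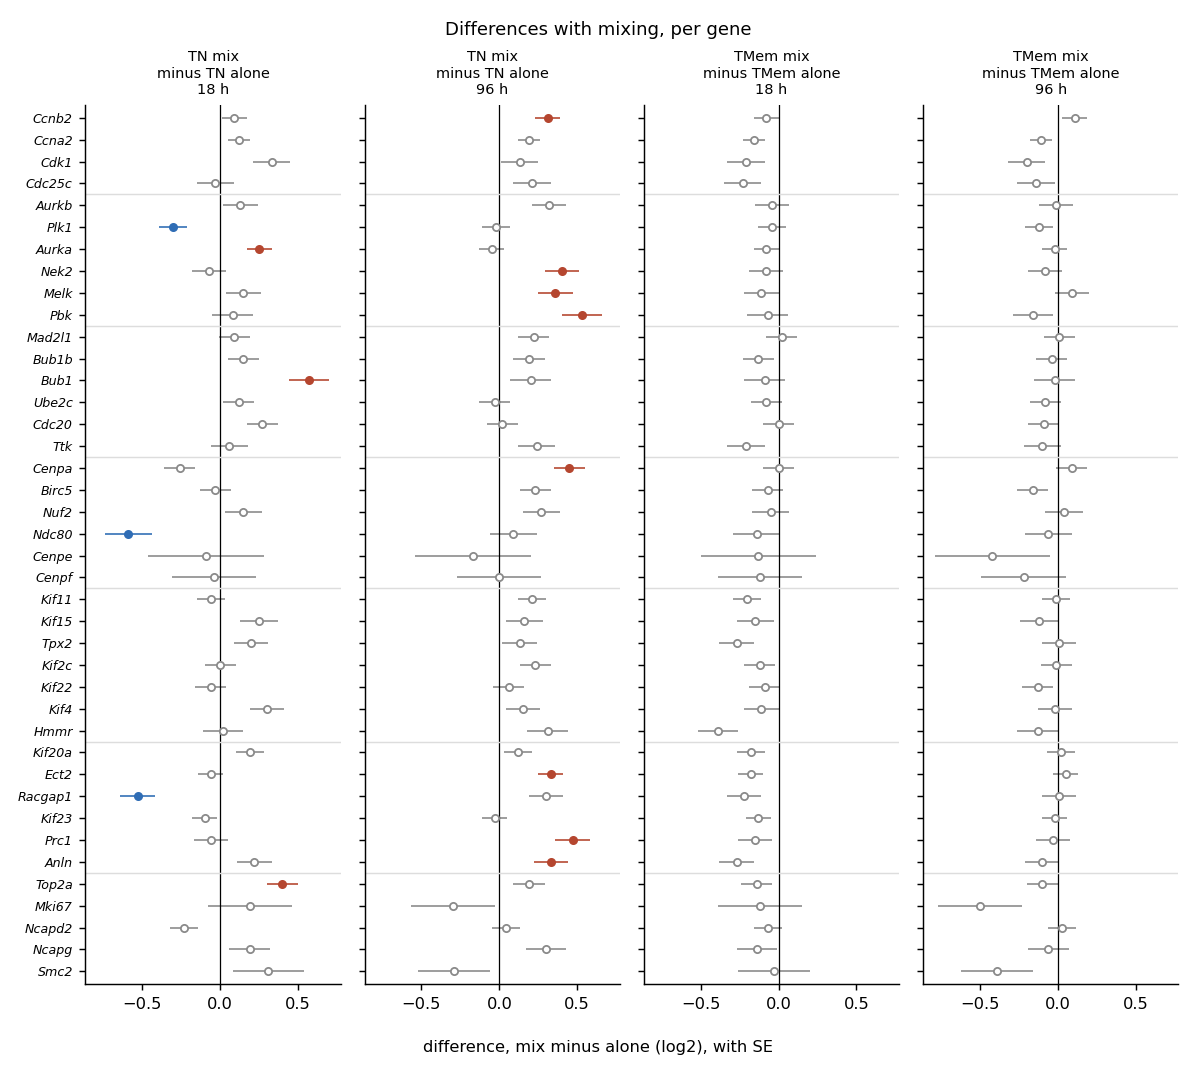
Difference in log2 signal between mix and alone (x axis, error bars are SE) for each member (y axis), in TN at 18 h and 96 h and in TMem at 18 h and 96 h; red points were called higher in mix, blue called lower, open grey not called. TN at 18 h has 3 called in each direction, TN at 96 h has 8 called higher, and TMem has none called at either time.

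In TMem the presence of TN gave no call at either time. At 18 h no member passed limma's test in TMem mix against TMem alone, where 0% of all genes were called higher and 0.0301% lower, 7 members had an unadjusted p under 0.05, all lower in TMem mix, and 3.03% of all genes had one. The median was -0.12, against 0.03 over all genes. Of the 40 members 39 lay below 0, beside 7760 of 19938 genes, and the range was from -0.39 for Hmmr to 0.02 for Mad2l1. Hmmr read 7.53, 7.88 and 7.77 in TMem mix, against 8.09, 8.10 and 8.18 in TMem alone, with no overlap but a limma adjusted p of 1. Anln, at -0.27, and Tpx2, a spindle assembly factor, at -0.27, also had arrays that did not overlap. Several other members, among them Ccna2, Cdk1 and Kif11, did not overlap either. The share of all genes without overlap was not counted, so nothing is read from it. At 96 h no member passed limma's test, where 0.968% of all genes were called higher and 0.15% lower, and 0 members had an unadjusted p under 0.05, against 7.14% of all genes. The median was -0.06. The lowest difference, -0.50 for Mki67, was -0.01 without the 5 arrays that stood apart.

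The effect of mixing in TN was set against that in TMem directly. At 18 h the difference was above 0 for 2 members, Bub1 (0.67, SE 0.18, limma adjusted p 0.0304) and Top2a (0.54, SE 0.14, limma adjusted p 0.0219), and below 0 for none, where 1.44% of all genes were called higher and 3.73% lower. For Bub1 the TN side lies near background. At 96 h only Pbk passed (0.69, SE 0.18, limma adjusted p 0.0246), where 1.92% and 1.62% of all genes were called. Of the 40 differences 38 were above 0, with a median of 0.24, beside 12356 of 19938 genes and a median of 0.06. The members share the same arrays, so these are not 38 independent results. At 18 h neither gene was called once TMem alone replicate 1 or TN alone replicate 2 was left out, and 1 was called without any single TN mix or TMem mix array or without TMem alone replicate 3. At 96 h Pbk was no longer called once TN mix replicate 2, TN alone replicate 1, TN alone replicate 2, TMem mix replicate 3 or TMem alone replicate 3 was left out. Without TN mix replicate 1 it was 1 of 3 members called.

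Within TN, the signed difference between mix and alone was higher at 96 h than at 18 h for 6 members and lower for none, where 8.16% of all genes were called higher and 4.26% lower. They were Racgap1 (0.82, SE 0.15, limma adjusted p 0.000418), Cenpa (0.71, SE 0.15, limma adjusted p 0.00134), Ndc80 (0.68, SE 0.21, limma adjusted p 0.0284), Prc1 (0.53), Nek2 (0.47) and Ect2 (0.38). For Prc1 the 18 h side is limited by background, with means of 5.34 in TN mix and 5.4 in TN alone. For Racgap1 (0.30 at 96 h and -0.53 at 18 h) and Ndc80 (0.09 at 96 h and -0.59 at 18 h) the difference between mix and alone was called at 18 h only and was the larger there in size. Racgap1 read 10.02, 10.22 and 10.06 in TN mix, against 9.65, 9.93 and 9.84 in TN alone at 96 h, with no overlap and no call. Cenpa read 8.28, 8.07 and 8.25 in TN mix, against 8.36, 8.57 and 8.44 in TN alone at 18 h, with no overlap and no call. The 6 calls came to 2 without TN alone 96 h replicate 1, and to 3 without TN mix 96 h replicate 3 or TN mix 18 h replicate 2.

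Further genes of mitosis were counted in the same fits. Of 65 further mitotic genes, 62 were higher and 1 lower in TMem than in TN at 0 h (median 2.74), 49 fell and 2 rose in TMem alone at 18 h (median -0.65), and 62 were higher and 1 lower in TN alone at 96 h than at 0 h. The shares of all genes called higher and lower in these comparisons were 18.4% and 17.5%, 18% and 17.3%, and 18.6% and 17.9%. Ccnf, an F-box cyclin, Kif18b, a microtubule motor, and Ncaph, a condensin subunit, were higher in TMem at 0 h by 3.71, 4.12 and 3.89. The falls with the smallest adjusted p in TMem at 18 h were those of Depdc1b (-2.12), Kif14 (-1.58) and Ccnf (-1.37). In TN mix against TN alone 10 of the 65 were higher and 2 lower at 18 h, beside 6.3% and 8.15% of all genes, among them Cks2, a CDK-binding protein (0.89, limma adjusted p 2.45e-05), Bub3 (0.46, limma adjusted p 1.59e-05) and Depdc1b (-0.53, limma adjusted p 0.00048). At 96 h 7 were higher and 1 lower, beside 7% and 3.62% of all genes, among them Cep55, which acts in abscission (0.44), Iqgap3 (0.38) and Psrc1 (-1.0, limma adjusted p 5.88e-09).

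Regulators of these genes and of mitotic entry moved less uniformly. Of 25, 17 were higher and 5 lower in TMem than in TN at 0 h, beside 18.4% and 17.5% of all genes, among them E2f8 (4.19), Foxm1, the mitotic transcription factor (2.95), and Wee1, which inhibits CDK1 (2.59). In TMem alone at 18 h 10 fell and 6 rose, beside 17.3% and 18% of all genes, and the clearest falls were in Cdc25b (-1.84), the CDK inhibitor gene Cdkn1b (-1.62) and Foxm1 (-1.08). In TN alone at 18 h 8 rose and 9 fell, beside 17.1% and 16.7% of all genes, among them Wee1 (1.44), Tfdp1 (1.31) and the antiproliferative gene Btg2 (-1.0). In TN mix against TN alone at 18 h 4 were higher and 4 lower, beside 6.3% and 8.15% of all genes, among them Cdc25b (-1.40, limma adjusted p 1.1e-10), Cdkn1b (-1.01, limma adjusted p 2.17e-09) and Rbl2, the p130 subunit of DREAM (-0.88, limma adjusted p 1.25e-06). At 96 h 3 were higher and 1 lower, beside 7% and 3.62% of all genes, with E2f5 at 0.63, Cdc25b at 0.31 and Btg1 at -0.45. In TMem mix at 96 h Btg1 (0.44) and Cdkn1b (0.39) were higher, beside 0.968% of all genes.

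Of the 29 S phase genes, 28 were higher in TMem than in TN at 0 h (median 1.89), beside 18.4% of all genes, among them Rrm2, a subunit of ribonucleotide reductase (4.32), the replication initiator Mcm10 (3.02) and the helicase cofactor Cdc45 (2.44). In TMem alone at 18 h 4 rose and 6 fell (median -0.04), beside 18% and 17.3% of all genes, near the counts those shares would give, with Lig1 at -0.58, Tyms at -0.57 and Mcm10 at 0.37. In TN alone at 18 h 12 rose and 5 fell (median 0.08), beside 17.1% and 16.7% of all genes, among them the helicase genes Mcm2 (1.30) and Mcm5 (0.91), while Ccne1, the G1/S cyclin, fell by 0.60. At 96 h 28 of 29 were higher in TN alone than at 0 h, beside 18.6% of all genes. In TN mix against TN alone 7 were higher at 18 h and none lower, beside 6.3% and 8.15% of all genes, and at 96 h none was higher and Cdc45 was lower (-0.24), beside 7% and 3.62%.

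Across the 30 arrays the genes outside the 40 whose values were most like the members' mean were Mastl (Pearson r 0.9971), Spag5 (0.9967), Kif18b (0.9963), Asf1b (0.9957), Stil (0.9956), Arhgap11a (0.9949), E2f7 (0.9948) and Shcbp1 (0.9948). Mastl encodes the Greatwall kinase of mitotic entry and averaged 8.96 in TMem and 4.97 in TN at 0 h. At 96 h Mastl averaged 8.95 in TN mix and 8.64 in TN alone. The points of this measure share groups, so r mostly reflects the gap between the low TN groups and the rest and is given as a description. Among the members themselves Kif11 followed the mean most closely (0.9985, a mean that includes it), and Smc2 (0.9327), Ndc80 (0.9425) and Cenpf (0.955) least.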

How the data were processed

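Per the labels' protocols, RNA was extracted with RNeasy columns and amplified across the transcript before biotin labelling for Affymetrix arrays. The authors deposited 1 table of log2 values, 35556 features by 30 arrays (2.047 to 14.163, array medians 6.76 to 6.94), and the submitters' processing notes name RMA and Partek; no version or setting of either is recorded there. Array data carry no read depth, so the 3 arrays per group limit the precision. An exact permutation test of 3 against 3 arrays cannot go below p = 0.1.

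GEO's platform annotation gave 1 symbol to 21789 features, several to 1621 and none to 12146 not listed. Symbols were updated through RefSeq gene numbers for 21698 features, and 91 kept the old symbol. Where a gene had several features (999 of 19938 genes), the one with the highest mean was used. For Top2a that feature averaged 9.81, and its other feature 4.87. limma 3.58.1 in R 4.3.3 was run on the deposited log2 values with 1 mean per group over all 30 arrays (20 residual degrees of freedom), 2-sided, and the script was first tested on simulated data.

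The members and the gene lists were chosen with earlier results of these data known, so no p-value is given over a list. Values per array are given for Cdk1, Mki67 and Top2a, for the 2 members of each role with the widest range of group means, for up to 6 called members per comparison of mix with alone, for up to 3 in each difference of differences, and for members against the common direction. Other genes named are the 3 with the smallest adjusted p per list and comparison, and the 8 most like the members' mean. Kif23, Racgap1 and Cenpa in TN at 18 h, and other members with values outside this rule, were chosen after their values were seen.

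Alternatives covered the scaling, array weights, a fit without the 0 h arrays, a fit on only the groups compared, feature choice, a filter on low values, each array left out and the replicate number as a block. Leaving out X and Y genes, leaving out the 5 arrays that stood apart, and the block within only 2 groups were added after seeing the data. Deviations of same-numbered arrays correlated above 0.1 for all 3 numbers only between TN mix and TN alone at 96 h (0.49, 0.31 and 0.14). For the other pairs of groups this was not so, and whether same-numbered samples were prepared together was not tested.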

Additional observations from a re-analysis of the deposited data

Results flagged for a closer look

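Differences between cell types or times were tested directly in limma, as an interaction over all genes, and those that passed are gathered here. The effect of mixing differed between TN and TMem at 18 h for 2 of 40 members (5%), Bub1 by 0.67 and Top2a by 0.54, both larger in TN. Of all genes, 1.44% were called higher and 3.73% lower. At 96 h it differed for 1 member (2.5%), Pbk, by 0.69, where 1.92% of all genes were called higher and 1.62% lower. Leaving out certain single arrays brought either count to 0, so neither is read as a trait of the members. Within TN the effect of mixing differed between 96 h and 18 h for 6 members (15%), all higher at 96 h. Racgap1 was at 0.82, Cenpa at 0.71 and Ndc80 at 0.68, where 8.16% of all genes were called higher and 4.26% lower. Prc1, also among the 6, was near background in TN mix and TN alone at 18 h.

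The response to 18 h of stimulation differed between TMem and TN for 32 of 40 members, all lower in TMem, where 14.7% of all genes were called lower and 14.2% higher. Prc1 differed by -1.80, Ncapd2 by -1.65 and Kif11 by -1.58. The change from 18 h to 96 h alone was smaller in TMem than in TN for all 40 members, where 6.24% of all genes were called lower and 9.61% higher. Bub1 was at -4.36, Ccna2 at -4.17 and Mki67 at -3.87. That result follows from the gaps between TMem alone and TN alone at 18 h and 96 h reported above, on the same arrays. For Bub1, Prc1 and the other members near background in TN, 10 at 0 h and 11 in TN alone at 18 h, background bounds the sizes. Kif11, at 5.71 in TN at 0 h, lay barely above the limit of 5.63.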

How the results depend on the processing

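The 52 member calls of the comparisons with few calls were recomputed gene by gene; none changed direction, 782 of the recomputed calls kept the threshold and 198 lost it. The counts of 40 members higher in TMem at 0 h and at 18 h, and higher in TN at 96 h, were 40 under every setting that kept Kif4, an X-linked member, and the count for TMem at 18 h against 0 h stayed at 35 to 38 without single arrays. Small counts did depend on it, and the cause was not tested. Members called, with the count reported above in brackets, were as follows. With quantile normalization there were 10 (6) for TN mix at 18 h, 5 (8) for TMem against TN alone and 7 (3) for TMem mix against TN mix at 96 h, 12 (7) for TMem alone at 96 h against 0 h, and 7 (2) at 18 h and 2 (1) at 96 h for the mixing effect in TN minus that in TMem. With each array centred on its median they were 4 (8) for TN mix at 96 h, 3 (8) and 0 (3) for TMem against TN at 96 h alone and mixed, 4 (2) and 0 (1) for the difference in mixing effects, and 3 (6) for mixing in TN at 96 h minus 18 h, whose median reversed to -0.01 (0.12). With array weights they were 15 (6) and 24 (8) for TN mix at 18 h and 96 h, 15 (8) and 15 (3) for TMem against TN at 96 h, 17 (11) for TN and 11 (7) for TMem over time, 11 (2) and 15 (1) for the difference in mixing effects, and 11 (6) within TN. With only the groups compared they were 4 (8) for TN mix at 96 h, 0 (3) for TMem mix against TN mix at 96 h, 0 (7) for TMem at 96 h against 0 h, 5 (2) for the difference in mixing effects at 18 h and 2 (6) within TN. Without the 0 h arrays the difference in mixing effects gave 6 (2) and 4 (1), and with a gene's features averaged 1 (2) at 18 h. Without the 5 arrays that stood apart there were 10 (6) for TN mix at 18 h, and 7 (2) and 3 (1) for the difference in mixing effects. Leaving out single arrays gave 4 to 10 for TN mix at 96 h, 3 to 7 for TMem against TN alone and 0 to 5 mixed at 96 h, 1 to 6 for TMem at 96 h against 0 h, 0 to 3 for the difference in mixing effects at 18 h and at 96 h, and 2 to 6 within TN. With the replicate block the counts were 5 (6) and 7 (8) for TN mix at 18 h and 96 h, 7 (8) for TMem against TN alone at 96 h and 6 (7) for TMem at 96 h against 0 h, none of them moved by over 1.5 times. Only with the 2 groups alone and the block did TN mix at 96 h give 11 (8).

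Counts over all genes moved as well. With array weights they were 4853 (2881) and 6343 (2117) for TN mix at 18 h and 96 h, 100 (6) and 906 (223) for TMem mix, 8205 (4420) for TMem against TN alone at 96 h, 6107 (4070) and 4909 (2117) for TMem against TN mixed, 7546 (4868) for TMem at 96 h against 18 h, 2941 (1031) and 3202 (705) for the difference in mixing effects, 5147 (2475) for mixing within TN and 5819 (3161) for the change from 18 h to 96 h. With only the groups compared they were 36 (6) and 435 (223) for TMem mix, 4091 (7151) for TMem against TN at 0 h, 6699 (4420) at 96 h alone, 1961 (1031) and 1185 (705) for the difference in mixing effects and 4973 (3161) for the change. Without the 0 h arrays they were 3208 (2117) for TN mix at 96 h, 41 (6) and 507 (223) for TMem mix, 2089 (1031) and 1422 (705) for the difference in mixing effects and 3872 (2475) within TN. Without the 5 arrays they were 50 (6) and 476 (223) for TMem mix, 3287 (2117) for TMem against TN mixed at 96 h, and 2055 (1031) and 1302 (705) for the difference in mixing effects. Centring gave 10 (6) for TMem mix at 18 h, and single arrays left out gave 1 to 6 for TMem mix at 18 h, 105 to 170 at 96 h, and 1897 to 2496 for TN mix at 18 h.

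With 3 arrays per group, labels that say nothing of batches, and 10 or 11 members near background in each TN group at 0 h and 18 h, falls in those groups are poorly measured.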
